A study of Mus musculus with 7 samples.

Results

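The miRNAs described here come from the imprinted Dlk1-Dio3 region of mouse chromosome 12, and they were chosen by name: 52 mature miRNAs of its maternally expressed clusters were listed, and 44 of them had a row among the 820 miRNAs of the deposited table. The other 8 listed miRNAs have no values here. They were measured by small RNA sequencing of extracellular vesicles (membrane-bound particles shed by cells) isolated from epididymal white adipose tissue (a visceral fat depot) of male ApoE-/- mice. These mice lack apolipoprotein E and develop atherosclerosis; they were 8 weeks old, and all received a high-fat diet for 12 weeks. The HFD+Ni group (3 libraries) also received nicotine at 2 mg/kg/day, and the HFD group (4 libraries) received the diet alone. Neither the route of nicotine nor the number of animals behind a library is stated in the labels, so the spread between libraries may be partly technical.

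On the chromosome inherited from the mother this region makes long non-coding RNAs (Meg3, an antisense transcript of Rtl1, Rian and Mirg) and, along the same strand, one of the largest groups of miRNAs in the mammalian genome. The paternal copy makes the proteins Dlk1, a brake on fat cell formation, Rtl1 and Dio3. The miRNAs are best known from embryo, placenta and brain, and they are low in most adult tissues.

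A mature sequence was found in the RefSeq table (GRCm38.p6) for 49 of the 52 listed miRNAs, and all 49 lay on the plus strand of chromosome 12. Their 39 hairpin genes spanned 172 kb, bases 109571990 to 109743795, downstream of Meg3 (109541001 to 109571726) and upstream of Dio3 (110279068 to 110281097). In the GENCODE M21 annotation 5 hairpins lay opposite an exon of Rtl1 (109589193 to 109600330, minus strand), 2 lay in introns of Rian, 11 lay in exons or introns of Mirg (109729764 to 109749460), and 21 lay in no other annotated gene. The stretch that begins with miR-379 and ends with miR-410 is treated below as one subgroup, since Mirg as annotated covers only its distal end. No 2 of the 49 had the same seed, the stretch of bases 2 to 8 by which a miRNA recognises its targets. Seeds of 5 members recurred elsewhere in the table, each in 1 other miRNA. One of these was miR-379-5p, whose seed is also that of miR-1193-5p, another miRNA of the region, read at a mean of only 0.136 rpm.

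The sequences below are those of the members on which the results turn: the most abundant ones, and both pairs of close relatives among the 10 most abundant. Each is printed 5′ to 3′ as RNA with the seed in capitals; the species prefix mmu is dropped elsewhere.
mmu-miR-127-3p (chr12:109592888-109592909): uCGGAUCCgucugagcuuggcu
mmu-miR-434-3p (chr12:109594565-109594586): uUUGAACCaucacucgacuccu
mmu-miR-541-5p (chr12:109742422-109742446): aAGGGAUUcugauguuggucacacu
mmu-miR-382-5p (chr12:109733781-109733802): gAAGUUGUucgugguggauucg
mmu-miR-379-5p (chr12:109709065-109709085): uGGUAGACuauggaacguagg
mmu-miR-411-5p (chr12:109710190-109710210): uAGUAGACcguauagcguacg
mmu-miR-300-3p (chr12:109724363-109724384): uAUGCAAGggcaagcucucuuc
mmu-miR-381-3p (chr12:109726870-109726891): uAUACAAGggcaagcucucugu

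Counted from the 5′ end, miR-379-5p and miR-411-5p matched at 14 of 21 bases; bases 3 to 8 were equal and the seeds differed by G2A. Between miR-300-3p and miR-381-3p 19 of 22 bases were equal, and the differences were G4A, U21G and C22U, of which the first lies in the seed. The recovered reads of this pair were 0 and 6, 16 and 16, and 1 and 1 in HFD+Ni replicates 1 to 3, and 0 and 0, 46 and 42, 5 and 2, and 0 and 0 in HFD replicates 1 to 4, miR-300-3p being given first. Whether they share reads was not tested, so each level is uncertain.

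The values are reads per 1000000 miRNA reads of a library (rpm), from which whole reads were recovered. The HFD+Ni libraries held 53626 to 175892 reads and the HFD libraries 77021 to 1055902. HFD replicate 2 was the deepest and HFD+Ni replicate 1 the shallowest. An unread miRNA may still be present at up to 3 reads, worth 55.9 rpm in the shallowest library and 2.84 rpm in the deepest. The mean level of 38 of the 44 members was under the first of these limits. The summed adipocyte markers were at 13725 to 27102 rpm in HFD+Ni and 20373 to 32712 rpm in HFD, with all 6 listed markers in the table. Among the 6, miR-103-3p and miR-107-3p had near-equal reads in every library, and whether they share reads was not tested.

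Together the members were a small part of the vesicle cargo in both groups. They summed to 839, 1245 and 1171 rpm in HFD+Ni replicates 1 to 3, against 1052, 1145, 1107 and 675 rpm in HFD replicates 1 to 4. The group means were 1085 ± 216 rpm in HFD+Ni (SD, n = 3) and 995 ± 216 rpm in HFD (SD, n = 4), so the groups overlapped and their means differed by less than 1 SD. As a share of all miRNA reads this ran between 0.0839% (exact binomial interval 0.0612% to 0.112%, at the 95% level) and 0.125% (0.109% to 0.142%) in HFD+Ni. In HFD it ran between 0.0675% (0.0504% to 0.0885%) and 0.114% (0.108% to 0.121%). The difference of the means was 90.3 rpm with all libraries, and it was -16.2 rpm without HFD replicate 4 and 213 rpm without HFD+Ni replicate 1. In vesicles, fewer particles from a kind of cell and fewer miRNA copies per particle cannot be told apart.

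Most of the summed level came from few members. The 4 most abundant were miR-127-3p, miR-434-3p, miR-379-5p and miR-541-5p, and they made up 56.8% of it over the 7 libraries, while the 10 most abundant made up 80.6%. Their ranks among all 820 miRNAs were 117, 127, 160 and 175. Levels of different mature miRNAs are set side by side here because their lengths are nearly equal, although library preparation does not capture all of them equally well.

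**Figure D1:**
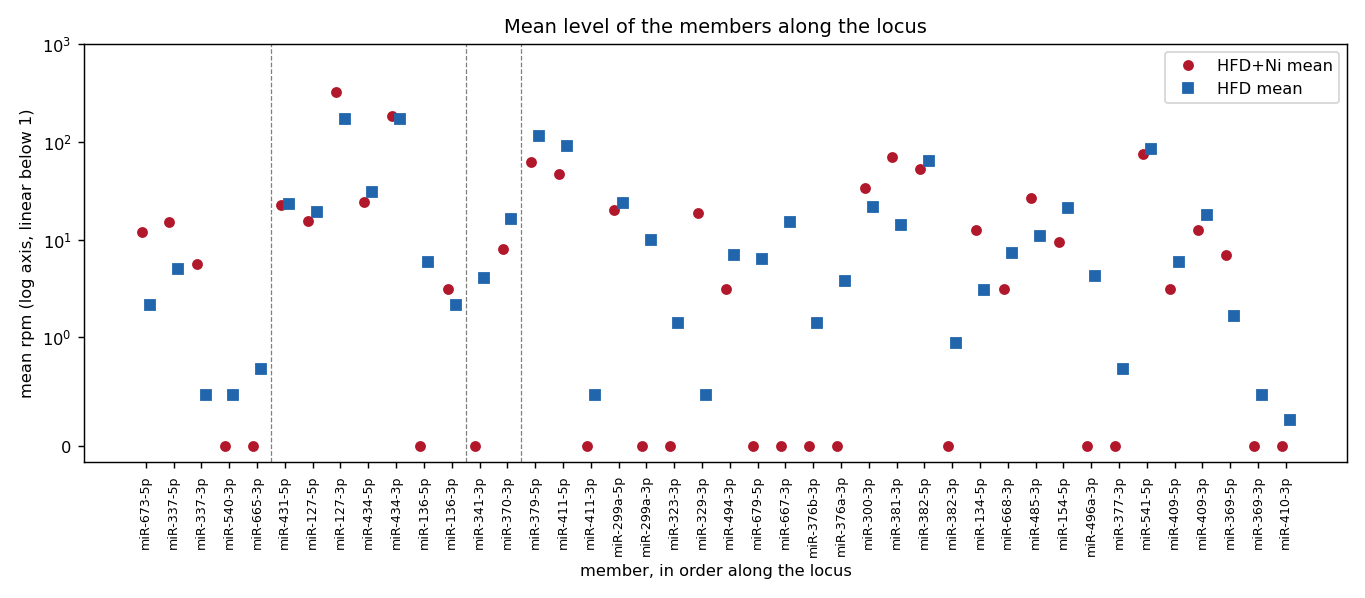
Mean level (rpm, log axis that is linear below 1) of the 42 members with both a deposited row and a RefSeq position, in order along the locus, for HFD+Ni (circles) and HFD (squares). Dashed lines separate, from left to right, the members between Meg3 and Rtl1, those antisense to Rtl1, those within Rian and the stretch from miR-379 to miR-410; miR-127-3p and miR-434-3p are the highest in both groups.

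The 4 leading members were steadier in sum than the remaining 40. The leading 4 had 615, 517 and 808 rpm in HFD+Ni replicates 1 to 3, against 557, 537, 545 and 532 rpm in HFD replicates 1 to 4. The remaining 40 summed to 224, 728 and 362 rpm in HFD+Ni and to 495, 608, 562 and 143 rpm in HFD. HFD+Ni replicate 1 and HFD replicate 4 therefore held little beyond the leading members, which took 73.3% and 78.8% of the members' level there. The share was 69.0% in HFD+Ni replicate 3 and 41.6% to 52.9% in the other 4 libraries. The leading members were picked by their mean over these same libraries, and the sums of the remaining 40 rest on 12 reads in HFD+Ni replicate 1 and 11 in HFD replicate 4.

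The number of members detected followed depth only in part. At least 1 read was found for 7, 22 and 24 members in HFD+Ni replicates 1 to 3 and for 15, 42, 21 and 8 members in HFD replicates 1 to 4. With every library brought to 53626 reads, the expected numbers were 7.00, 18.5 and 17.1 in HFD+Ni and 13.9, 19.5, 17.5 and 7.82 in HFD. HFD replicate 2 no longer stood apart at equal depth, but HFD+Ni replicate 1 and HFD replicate 4 stayed the lowest. In these 2 libraries all miRNAs of the table together were expected at 250 and 258, against 309 and 322 in the other HFD+Ni libraries and 269 to 310 in the other HFD libraries. The summed epithelial markers (miR-200 family and miR-205) were at 45146 rpm in HFD+Ni replicate 1 and at 4813 to 13605 rpm in the other 6 libraries, and none of the 6 was unread in HFD+Ni. The 5 striated muscle markers in the table summed to 4025 rpm in HFD replicate 4, to 4301 rpm in HFD replicate 2 and to at most 1156 rpm in the other 5 libraries, with miR-206-3p and miR-499-5p unread in HFD+Ni. The part of these tissue markers in the low number of members was not tested.

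**Figure D2:**
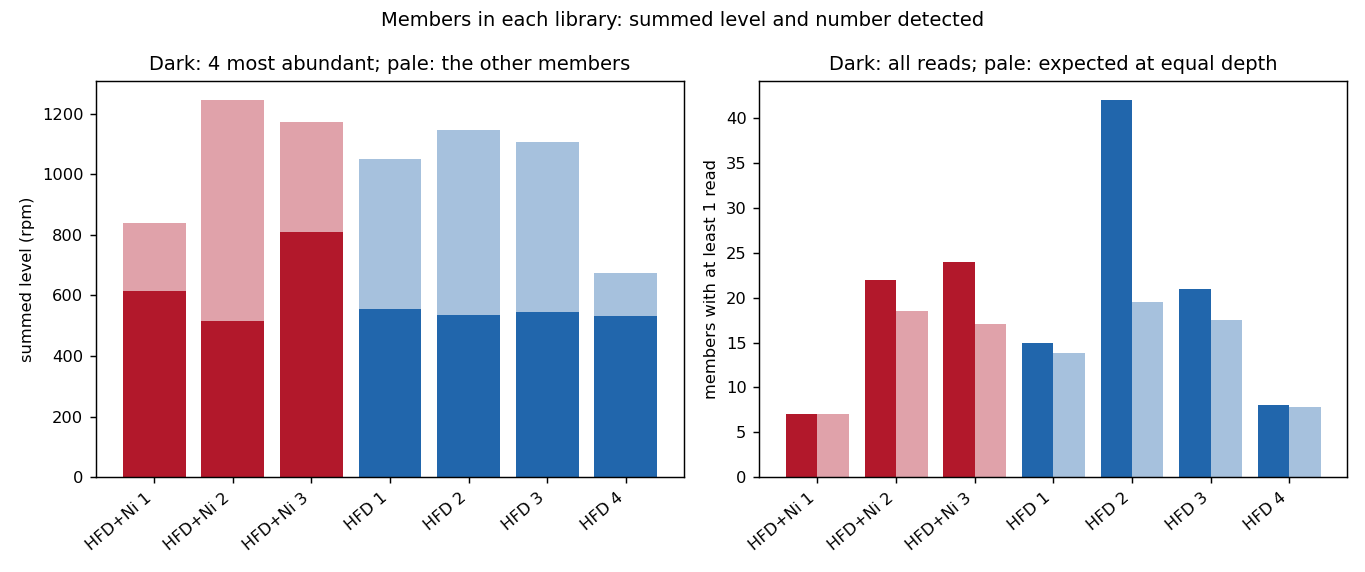
Left: summed level of the members in each library (rpm), with the 4 most abundant in dark colour and the other 40 in pale colour. Right: members with at least 1 read, with all reads (dark) and the number calculated for 53626 reads per library (pale); HFD+Ni replicate 1 and HFD replicate 4 stay lowest after equal depth.

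Many of the rarer members were read only where depth was high. No read was found in HFD+Ni for 17 of the 44 members (38.6%, against 40.6% of all 820 miRNAs), and none of these had more than 26 reads in HFD. Of the 44, 12 were read in 1 library only (27.3%, against 41.8% of all miRNAs), 10 of these in HFD replicate 2 and 2 in HFD replicate 3. They include miR-410-3p, the last of the cluster, with 1 read, and miR-323-3p, miR-377-3p and miR-369-3p with 6, 3 and 2. Reads in all 7 libraries were found for 5 members, namely the leading 4 and miR-382-5p.

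HFD+Ni and HFD libraries were compared with limma on log2(rpm + 1) over the 387 miRNAs that averaged 5 rpm or more. Of the members 25 passed that filter and 19 did not; the lowest tested member, miR-494-3p, had a mean of 5.27 rpm and the highest untested one, miR-409-5p, 4.71 rpm. No member was called at an adjusted p under 0.05 (0 of 25; 0% of the 387 tested miRNAs were called), and none at an unadjusted p under 0.05 (2.84% of the 387 were). The lowest unadjusted p among members in limma was 0.104 and the lowest adjusted p was 0.830. edgeR on the recovered reads also called 0 members (lowest adjusted p = 0.654) and put 0 at an unadjusted p under 0.05, against 7.24% of all tested miRNAs. DESeq2 called 0 members, against 0.258% of all tested miRNAs (lowest adjusted p = 0.869), and put 0 at an unadjusted p under 0.05, against 4.91%.

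As a description, 11 of the tested members were on the higher side in HFD+Ni and 14 on the lower, so that 44.0% lay higher, against 52.7% of all tested miRNAs. Their median log2 fold change was -0.41, against 0.04 over all 387. For the 2 tested members without a read in HFD+Ni no fold could be bounded. With these set to 0 the median was 0, which is the imposed value itself and not a measured one. The sign of the median depended on the libraries used and on how depth was handled. It was 0.12 after thinning every library to 53626 reads (14 of 27 higher) and 0.22 with library weights (15 of 25 higher). The members' median was 1.20 without the deepest and the shallowest library (19 of 26 higher, median of all tested 0.27), 0.91 without HFD+Ni replicate 1 (17 of 26 higher, median of all tested 0.25), 0.09 without HFD replicate 1 and 0.01 without HFD replicate 3. Without any filter 14 of 44 members lay higher and 30 lower (median -0.49, against -0.24 over all 820); the 17 members unread in HFD+Ni are among the 30, and none was unread in HFD, which holds the deepest library.

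**Figure D3:**
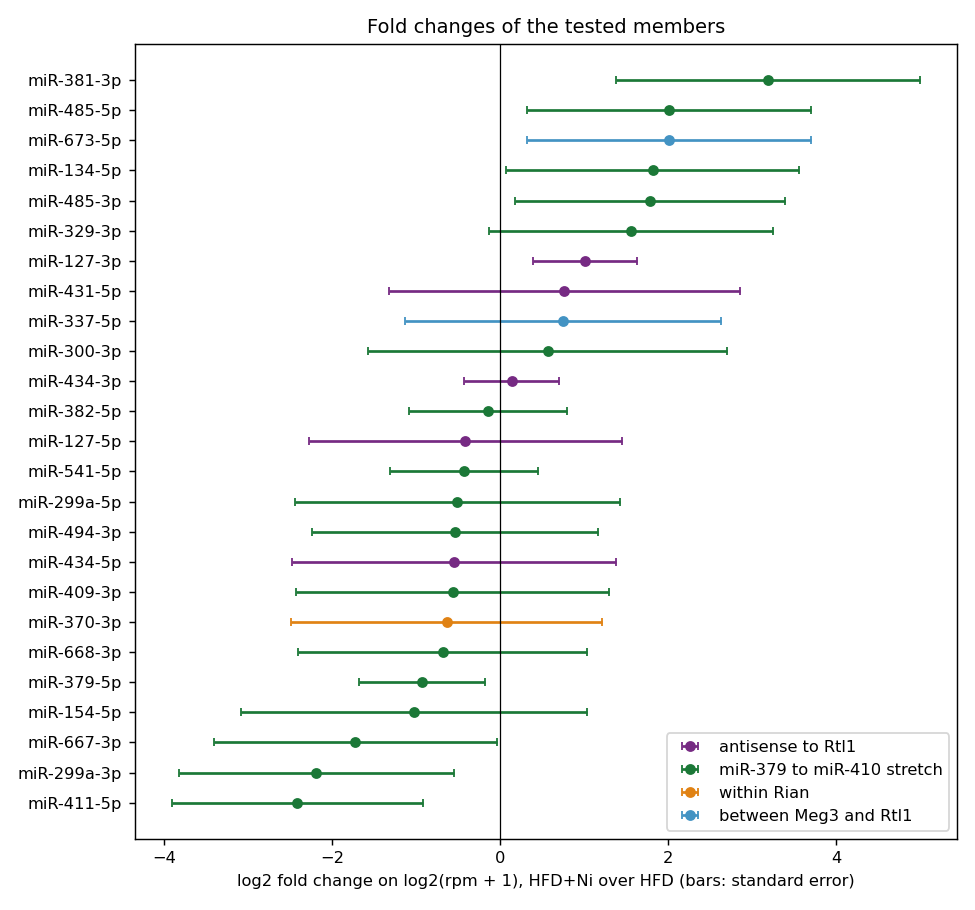
log2 fold change of the 25 tested members on the log2(rpm + 1) scale, HFD+Ni over HFD, with the standard error from limma as bars, coloured by position in the locus. miR-381-3p has the highest value and miR-411-5p the lowest, and members of the same stretch lie on both sides of 0.

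The miRNAs antisense to Rtl1 are encoded opposite the Rtl1 coding exon, and in mouse miR-127 and its neighbours direct cleavage of the Rtl1 transcript. miR-127-3p was the most abundant member, at 317, 222 and 437 rpm in HFD+Ni replicates 1 to 3, against 186, 206, 230 and 64.9 rpm in HFD replicates 1 to 4. The groups overlapped, since HFD+Ni replicate 2 lay just below HFD replicate 3. Its means were 325 ± 108 rpm in HFD+Ni (SD, n = 3) and 172 ± 73.5 rpm in HFD (SD, n = 4), a 1.89-fold ratio. The log2 fold change was 1.01 (SE 0.62), which did not pass the limma test (adjusted p = 0.830), and it was 0.60 without HFD replicate 4.

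miR-434-3p, from the next hairpin, was the steadiest of the leading members. It was at 186, 188 and 177 rpm in HFD+Ni and at 198, 121, 153 and 208 rpm in HFD. The coefficient of variation over the 7 libraries was 16.8%, against 38.2% to 48.5% for the other 3 leading members. The means of 184 ± 6.10 rpm in HFD+Ni (SD, n = 3) and 170 ± 40.3 rpm in HFD (SD, n = 4) differed by less than the spread within HFD (log2 fold change 0.14, SE 0.56, limma adjusted p = 0.979).

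The passenger arms of these hairpins were much rarer. miR-127-3p took 93.6% of the reads of its hairpin in HFD+Ni (103 of the 3p arm and 7 of the 5p arm, exact binomial interval 87.3% to 97.4%) and 91.1% in HFD (265 and 26, 87.2% to 94.1%). miR-434-3p took 84.9% in HFD+Ni (62 and 11, 74.6% to 92.2%) and 80.2% in HFD (178 and 44, 74.3% to 85.2%). Reads were pooled over the libraries of a group, and HFD replicate 2 gave 218 of the 265 and 21 of the 26 miR-127 reads in HFD. The intervals cover counting error only, not the spread between libraries. They overlapped between the groups for each hairpin, so the pooled reads showed no clear shift in arm use. The same held in the distal stretch, where miR-411 was read nearly only as its 5p arm (100% in HFD+Ni, 22 of the 5p arm and 0 of the 3p arm, 84.6% to 100%, and 98.7% in HFD, 150 and 2, 95.3% to 99.8%). For miR-382 the 5p arm took 100% in HFD+Ni (16 and 0, 79.4% to 100%) and 95.5% in HFD (84 and 4, 88.8% to 98.7%). The difference was larger for miR-299a, on few reads and with intervals that still overlapped. Its 5p arm took 100% in HFD+Ni (10 and 0, 69.2% to 100%) and 67.9% in HFD (55 and 26, 56.6% to 77.8%).

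miR-431-5p, known in mouse from muscle stem cells, was at 0, 39.8 and 27.9 rpm in HFD+Ni and 74.2, 18.9, 0 and 0 rpm in HFD. miR-434-5p was at 0, 45.5 and 27.9 rpm in HFD+Ni and 37.1, 33.2, 51.1 and 0 rpm in HFD. In both cases the groups overlapped, and the zeros fell in HFD+Ni replicate 1 and HFD replicate 4, where 3 reads are worth 55.9 and 39.0 rpm; miR-431-5p was also unread in HFD replicate 3. miR-136, whose hairpin is the most distal of this subgroup, was scarce: its 3p arm averaged 3.10 rpm in HFD+Ni and 2.13 rpm in HFD, and its 5p arm was unread in HFD+Ni and averaged 5.91 rpm in HFD.

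Summed, the 7 members antisense to Rtl1 were at 503, 523 and 697 rpm in HFD+Ni and at 495, 415, 468 and 312 rpm in HFD. All HFD+Ni libraries lay above all HFD libraries, but the lowest HFD+Ni value exceeded the highest HFD value by less than 1 read. The means were 574 ± 106 rpm in HFD+Ni (SD, n = 3) and 422 ± 81.0 rpm in HFD (SD, n = 4). Without miR-127-3p the sums were 186, 301 and 260 rpm in HFD+Ni and 309, 208, 238 and 247 rpm in HFD, which overlap, with means of 249 and 251 rpm.

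**Figure D4:**
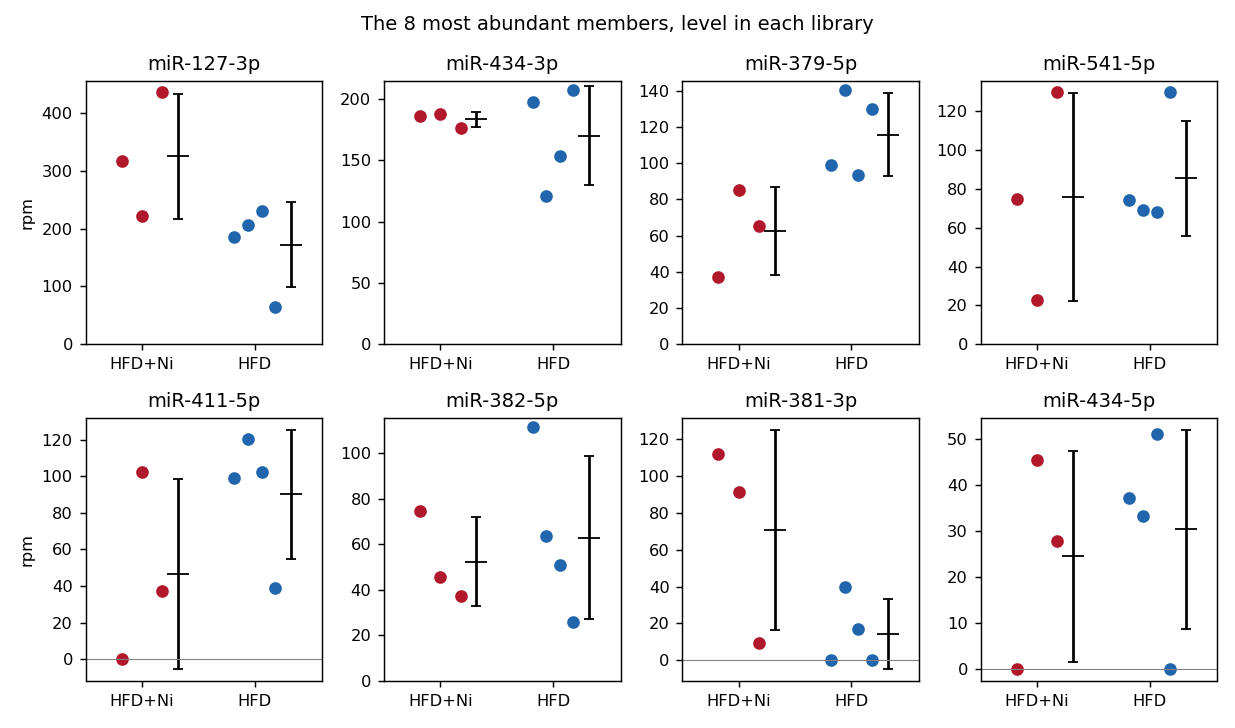
Level (rpm) of the 8 most abundant members in each library, HFD+Ni left of HFD, with one point per library and the mean and SD beside the points. miR-379-5p is the only one of the 8 whose groups do not overlap, with HFD+Ni at 37.3 to 85.3 rpm and HFD at 93.7 to 140 rpm.

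The stretch from miR-379 to miR-410 is best known from neurons, where its transcription follows activity and miR-134 limits the growth of dendritic spines. miR-379-5p, its proximal end, was at 37.3, 85.3 and 65.0 rpm in HFD+Ni replicates 1 to 3, against 99.0, 140, 93.7 and 130 rpm in HFD replicates 1 to 4. No HFD+Ni value reached the lowest HFD value. It was the only member of 44 without overlap, 1 of 25 tested (4.00%), where 5.17% of all tested miRNAs showed none and 2.33% showed none with HFD+Ni lower. The means were 62.5 ± 24.1 rpm in HFD+Ni (SD, n = 3) and 116 ± 22.8 rpm in HFD (SD, n = 4), 1.85-fold lower under nicotine. The log2 fold change of -0.93 (SE 0.75) did not pass the limma test (adjusted p = 0.830), and only 2, 15 and 7 reads stood behind the HFD+Ni values. Leaving out each library in turn gave log2 fold changes between -1.19 and -0.61.

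miR-411-5p, encoded next to miR-379 and alike in bases 3 to 8, was at 0, 102 and 37.2 rpm in HFD+Ni and at 99.0, 120, 102 and 39.0 rpm in HFD. The groups overlapped. Its log2 fold change of -2.41 (SE 1.49, limma adjusted p = 0.830) was the lowest of the tested members on the log2(rpm + 1) scale, and it was -0.42 without HFD+Ni replicate 1, where no read was found. On the recovered reads it was -0.95 in edgeR and -0.81 in DESeq2. There miR-667-3p and miR-299a-3p, both unread in HFD+Ni, had the lowest fitted values. Members read in HFD+Ni also lay below miR-411-5p, namely miR-154-5p and miR-668-3p in both tools and miR-379-5p in edgeR.

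miR-541-5p was at 74.6, 22.7 and 130 rpm in HFD+Ni and at 74.2, 69.1, 68.1 and 130 rpm in HFD. The groups overlapped, and HFD replicate 4 stood above the other 3 HFD libraries, which were nearly equal. The log2 fold change was -0.43 (SE 0.88, limma adjusted p = 0.929). miR-382-5p was at 74.6, 45.5 and 37.2 rpm in HFD+Ni and at 111, 63.5, 51.1 and 26.0 rpm in HFD, with overlapping groups and a log2 fold change of -0.14 (SE 0.94, limma adjusted p = 0.996).

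miR-381-3p was the member with the highest fold change on the log2(rpm + 1) scale and the only one in the authors' deposited list of 15 changed miRNAs. It was at 112, 91.0 and 9.29 rpm in HFD+Ni (6, 16 and 1 reads) and at 0, 39.8, 17.0 and 0 rpm in HFD. The groups overlapped, because HFD+Ni replicate 3 lay below HFD replicates 2 and 3. The means were 70.7 ± 54.2 rpm in HFD+Ni (SD, n = 3) and 14.2 ± 18.8 rpm in HFD (SD, n = 4), a 4.98-fold ratio, and the log2 fold change of 3.19 (SE 1.81) did not pass the limma test (adjusted p = 0.830). On the recovered reads its log2 fold change was 1.76 in edgeR and 2.09 in DESeq2. There miR-329-3p was higher, at 3.54 and 3.31, with 6 reads in HFD+Ni, all in replicate 3, and 2 in HFD, both in replicate 2.

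The authors' deposited list gives miR-381-3p a log2 fold change of 3.32 and a p-value of 0.0108, whereas the authors' deposited table of all miRNAs gives 1.82 and 0.0769. Over all 44 members the authors' deposited table gives 13 values above 0 and 31 below, a lowest p-value of 0.0758 (miR-329-3p) and an FDR of 1 throughout, so 0 were called there, against 0.122% of all 820. Among the 31 are the 17 members unread in HFD+Ni, while none was unread in HFD, which holds the deepest library. The libraries behind the authors' deposited list differ in 2 ways: HFD replicate 2, with 42 reads of miR-381-3p, has no column there, and 1 further column is named like an HFD+Ni library but matches no label. Left out here, HFD replicate 2 moved the fitted log2 fold change to 4.18 (limma adjusted p = 0.897). miR-300-3p, its close relative in sequence, was at 0, 91.0 and 9.29 rpm in HFD+Ni and at 0, 43.6, 42.6 and 0 rpm in HFD. Its log2 fold change was 0.56 (SE 2.13, limma adjusted p = 0.973).

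The other members named for their fitted fold changes had few reads. miR-485-5p and miR-673-5p, which belong to different subgroups, had the same reads in every library (0, 3 and 2 in HFD+Ni, 0, 9, 0 and 0 in HFD). Their log2 fold change was 2.01 (SE 1.69, limma adjusted p = 0.830 for each). miR-299a-3p and miR-667-3p were unread in HFD+Ni, where 3 reads per library average 33.6 rpm. miR-299a-3p was at 0, 22.7, 17.0 and 0 rpm in HFD and miR-667-3p at 0, 0.95, 59.6 and 0 rpm. Both HFD means, 9.94 and 15.1 rpm, lay under that limit, so no fold could be bounded, and neither passed the limma test (adjusted p = 0.830 for each). Pooled over a group, miR-299a-3p had 0 reads in HFD+Ni (interval 0 to 10.9 rpm) and 26 in HFD (12.8 to 28.6 rpm). HFD replicate 2 gave 24 of the 26, and the intervals cover counting error only. The pooled intervals of miR-667-3p overlapped (0 to 10.9 rpm in HFD+Ni, 2.59 to 11.8 rpm in HFD). The 5p arm of miR-299a averaged 20.2 ± 27.3 rpm in HFD+Ni (SD, n = 3) and 23.5 ± 22.9 rpm in HFD (SD, n = 4).

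As a whole, the 30 members of this stretch summed to 336, 637 and 437 rpm in HFD+Ni and to 520, 676, 613 and 364 rpm in HFD, with overlapping groups. Of its 17 tested members 6 lay higher and 11 lower, with a median log2 fold change of -0.51, against 3 higher and 2 lower and a median of 0.14 for the 5 tested members antisense to Rtl1. The difference between the subgroups was not tested. Both subgroups took nearly equal parts of the members' level over all libraries, 49.5% and 47.2%. The members antisense to Rtl1 took 60.0%, 42.0% and 59.5% in HFD+Ni replicates 1 to 3 and 47.1%, 36.2%, 42.3% and 46.2% in HFD replicates 1 to 4, so the groups overlapped in this share too.

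**Figure D5:**
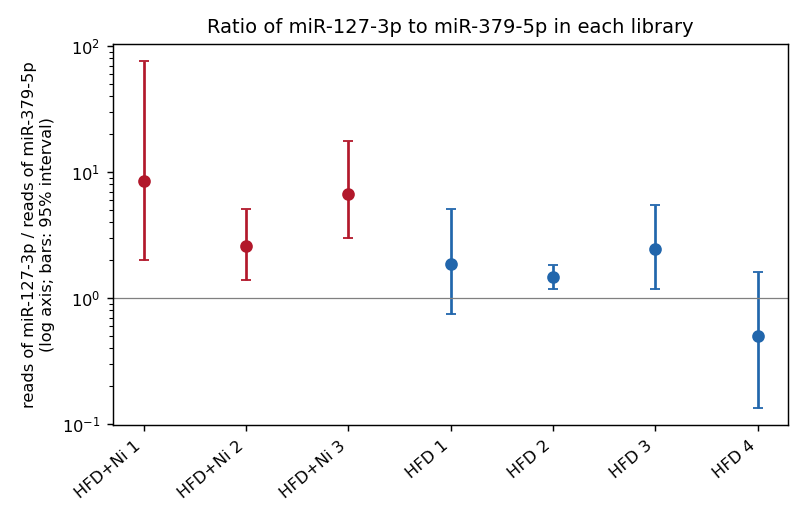
Reads of miR-127-3p divided by reads of miR-379-5p in each library (log axis), with exact 95% binomial intervals that cover counting error only. HFD+Ni libraries lie at 2.60 to 8.50 and HFD libraries at 0.50 to 2.45, with overlapping intervals between the lowest HFD+Ni and the highest HFD library.

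The leading members of the 2 subgroups, miR-127-3p and miR-379-5p, can be compared within a library, where depth and scaling drop out. miR-127-3p had 8.50, 2.60 and 6.71 times the reads of miR-379-5p in HFD+Ni replicates 1 to 3, against 1.88, 1.47, 2.45 and 0.50 times in HFD replicates 1 to 4. The groups did not overlap. The interval of HFD+Ni replicate 2 (1.40 to 5.08) and that of HFD replicate 3 (1.18 to 5.48) did overlap, and the interval of HFD+Ni replicate 1 (2.02 to 75.9) rests on 2 reads of miR-379-5p. The ratio was chosen after the values of its members were seen and is given without a test. The ratio of miR-127-3p to miR-434-3p, which are encoded side by side, ran from 1.18 to 2.47 in HFD+Ni and from 0.31 to 1.70 in HFD, with overlap. That of miR-434-3p to miR-379-5p was 5.00, 2.20 and 2.71 in HFD+Ni replicates 1 to 3, against 2.00, 0.86, 1.64 and 1.6 in HFD replicates 1 to 4, without overlap. Both ratios without overlap have miR-379-5p as their denominator, whose own levels did not overlap.

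The 2 remaining subgroups were scarce. The 5 members between Meg3 and Rtl1 (miR-673, miR-337, miR-540 and miR-665) summed to 0, 79.6 and 18.6 rpm in HFD+Ni and to 0, 35.0, 0 and 0 rpm in HFD. The 2 members within Rian summed to 0, 5.69 and 18.6 rpm in HFD+Ni and to 37.1, 18.9, 25.5 and 0 rpm in HFD. Among them miR-370-3p, known in human liver cells to act on fatty acid oxidation, was at 0, 5.69 and 18.6 rpm in HFD+Ni and at 37.1, 2.84, 25.5 and 0 rpm in HFD, each value resting on at most 3 reads. In both subgroups the groups overlapped.

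The region encodes further mature miRNAs, of which 62 were listed and 15 had a row in the table. They summed to 37.3, 56.9 and 18.6 rpm in HFD+Ni and to 61.9, 34.1, 42.6 and 39.0 rpm in HFD. Of these 2 were tested, both with log2 fold changes below 0 and neither called: miR-1247-5p, encoded next to Dio3 (log2 fold change -1.07, SE 1.69, limma adjusted p = 0.893), and miR-329-5p (-1.26, SE 1.80, limma adjusted p = 0.886).

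Summed levels of markers of other cell types and tissues varied between libraries. The 7 neural markers summed to 5501, 1478 and 288 rpm in HFD+Ni replicates 1 to 3, against 2697, 656, 1754 and 377 rpm in HFD replicates 1 to 4, with miR-124-3p, miR-137-3p and miR-219a-5p unread in HFD+Ni. The 14 testis and sperm markers summed to 2107, 1364 and 2945 rpm in HFD+Ni and to 1373, 720, 1252 and 870 rpm in HFD. The sum over 7 leukocyte markers was lower in HFD+Ni without overlap, at 3916 to 6206 rpm, against 6810 to 8868 rpm in HFD. So was the sum over 2 endothelial markers (both arms of miR-126a), at 12979 to 18852 rpm, against 20518 to 32381 rpm in HFD. The sums of all other marker lists overlapped between the groups. Among these, smooth muscle and mesenchymal markers were at 17488 to 34553 rpm in HFD+Ni and 20256 to 62111 rpm in HFD. This sum holds miR-199a-5p and miR-199b-5p, which had equal reads in every library, and whether they share reads was not tested. Erythrocyte markers were at 0 to 1031 rpm in HFD+Ni and 196 to 1273 rpm in HFD. Like miR-379-5p, the leukocyte and endothelial sums showed no overlap, and their part in its lower values was not tested.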

How the data were processed

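The deposited table holds values per miRNA in 7 libraries that its name calls TPM. They are rpm: each deposited rpm column sums to 1000000, and dividing by the step of 1 read gave whole reads for 100% of values in every library (tolerance 0.1 read). The submitters' processing notes name the genome build GRCm38 (mm10) and the tool edgeR; its version, the aligner and the counter are unstated there (not given in the sources used here). Beside these values, the deposited tables hold the authors' p-values, FDR and log2 fold changes (HFD+Ni over HFD). In the deposited list of 15 miRNAs 1 per-sample column matched no label and was not used.

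The groups were compared in R 4.3.3 with limma 3.58.1, using log2(rpm + 1) and a mean-variance trend, over 387 miRNAs that averaged 5 rpm or more, two-sided, with Benjamini-Hochberg adjustment over all 387 and a threshold of 0.05. A fold change on this scale understates or overstates that of scarce miRNAs, depending on the pseudocount. edgeR 4.0.16 and DESeq2 1.42.0 were run on the recovered reads. The code of all these fits was checked on simulated data with known changes. That check does not show whether changes in members of few reads could be found here. Intervals are exact at the 95% level and, like the floor of 3 reads, cover counting error only, since copies made by PCR are not independent. Detection at equal depth is the hypergeometric expectation. Pairs of miRNAs with equal or near-equal reads in every library were sought in the whole table. Near-equal pairs were sought from 200 summed reads on, allowing 5% or 2 reads per library, and exactly equal ones from 20 summed reads on. Of the pairs found, 0 included a member. Among members only miR-127-3p, miR-434-3p and miR-379-5p (368, 240 and 201 reads) reached the limit for near-equal pairs. The equal miR-485-5p and miR-673-5p, with 14 reads each, were under both limits. The search therefore does not show that members share no reads. All libraries have batch label 1.

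The members and lists were chosen with earlier results of these data known. Members named with values are the 10 most abundant, those whose groups do not overlap (from 10 reads on), those at unadjusted p under 0.05, the 3 with the highest and the 3 with the lowest fitted fold change, and any in the authors' list; further members were named after their values were seen.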

Additional observations from a re-analysis of the deposited data

Results flagged for a closer look

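Among the 4 HFD libraries, 5 of 25 sets of values held 1 library far from the other 3. Chance gives about 1 in 20 for independent, continuous values, a rate that does not apply here: miR-485-5p and miR-673-5p have equal reads, the last sum below includes miR-673-5p, and these 3 sets are 0 in all but the deepest library. miR-541-5p was at 130 rpm in HFD replicate 4, against 68.1 to 74.2 rpm in the others. miR-667-3p was at 59.6 rpm in HFD replicate 3, against 0 to 0.95 rpm. miR-485-5p and miR-673-5p were each at 8.52 rpm in HFD replicate 2 and at 0 in the others, where 1 read is worth 8.51 to 13.0 rpm. The members between Meg3 and Rtl1 summed to 35.0 rpm in HFD replicate 2 and to 0 in the others.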

How the results depend on the processing

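No member was called under any of the 18 alternatives: pseudocounts of 0.5 and 5, no filter or one at 50 rpm, edgeR, DESeq2, TMM scaling, thinning to the smallest library, library weights, a replicate block, and leaving out each library or the deepest and the shallowest together. Over all tested miRNAs DESeq2 called 1, which is no member, and the others called 0. At an unadjusted p under 0.05 without the deepest and the shallowest library, limma put 3 members, miR-134-5p, miR-485-5p and miR-673-5p, all higher in HFD+Ni (3 of 26, against 7.21% of all 402 tested; lowest adjusted p = 0.270). miR-411-5p was at an unadjusted p under 0.05 in limma without HFD+Ni replicate 2 (1 of 22 members, against 6.50% of all 369 tested, adjusted p = 0.711). With no filter it was again the only member there in limma (1 of 44, against 2.44% of all 820, adjusted p = 0.699). The direction turned for some members of few reads or small differences. In edgeR the log2 fold change of miR-434-3p was -0.0023. After thinning it was -0.44 for miR-300-3p, 0.52 for miR-382-5p and 1.73 for miR-434-5p, and the difference in the Rian members' sum was -32.6 rpm, against -12.3 rpm with all reads. Library weights gave 0.0080 for miR-434-5p. Without the deepest and the shallowest library it was -0.021 for miR-434-3p and 1.54 for miR-434-5p. With 1 library left out in turn the log2 fold changes ran from -1.05 to 2.21 for miR-300-3p, -0.50 to 0.19 for miR-382-5p, -0.21 to 2.46 for miR-431-5p, -0.0097 to 0.25 for miR-434-3p, -1.89 to 1.18 for miR-434-5p and -0.97 to 0.26 for miR-541-5p. The cause was not tested. Replicate numbers are shared between the groups. Deviations of libraries with the same number had correlations over tested miRNAs of 0.0156, 0.188 and -0.0991 for replicates 1 to 3. Pairs of unlike number ran from -0.149 to 0.105, so only the pair of replicates 2 lay above them. With the replicate block limma called 0 members, the members' median log2 fold change was -0.21, and the values were -0.35 for miR-300-3p and -0.12 for miR-431-5p. HFD replicate 4 has no HFD+Ni library of its number, so the block takes it out of the fold changes. Both values equal those fitted without HFD replicate 4. The directions of miR-127-3p, miR-379-5p, miR-381-3p and miR-411-5p held in every alternative that tested them. Depth limits the rarer members: 19 of 44 had fewer than 10 reads in all.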
